A study of Mus musculus with 10 samples.

Results

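The 10 genes described here are members of the BCL2 family, which controls the mitochondrial route to apoptosis, in transplanted mouse T-cell acute lymphoblastic leukemia (T-ALL, a cancer of immature T cells). They were taken by gene symbol from a table of 20813 genes, and all 10 were found and tested. They are Bcl2, Bcl2l1 and Mcl1 (pro-survival), Bax and Bak1 (effectors), and Bid, Bcl2l11, Bbc3, Pmaip1 and Bad (BH3-only). RNA was sequenced from 10 leukemic spleens, 1 library per spleen. All leukemias carried a conditional Sirt1 allele (Sirt1 encodes an NAD-dependent protein deacetylase) and were injected into mice irradiated below the lethal dose, with C57BL/6 given as the strain. The 5 samples labelled Sirt1-deleted came from mice given tamoxifen, 3 mg per mouse in corn oil, and the 5 controls from mice given corn oil alone, so genotype and tamoxifen cannot be told apart. The Cre driver, the ages of the mice, the time after treatment and whether the recipients shared 1 leukemia are not given in the sources used here, so the p-values measure the spread between these spleens. Replicate numbers are those of the sample titles.

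Apoptosis through mitochondria begins when the effector proteins BAX and BAK assemble pores in the outer mitochondrial membrane and cytochrome c leaks out. Pro-survival proteins (BCL2, BCL-XL from Bcl2l1, MCL1) hold the effectors in check by binding them and the BH3-only proteins. BH3-only proteins (BID, BIM from Bcl2l11, PUMA from Bbc3, NOXA from Pmaip1, BAD) are stress sensors that occupy the pro-survival proteins. Some of them, BID and BIM among others, also activate the effectors directly. Developing T cells depend on MCL1 and, by stage, on BCL2 or BCL-XL. Bax, Bbc3 and Pmaip1 are textbook targets of the transcription factor p53, itself a substrate of SIRT1.

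Sirt1 transcript itself did not separate the groups. Its normalized count (the deposited count per gene divided by DESeq normalization factors) was 1735, 1803, 1796, 1909 and 1810 in control replicates 2, 3, 4, 5 and 6, and 1925, 1715, 1817, 1812 and 2097 in labelled Sirt1-deleted replicates 7, 8, 10, 11 and 12. The log2 difference was 0.05 (95% interval -0.08 to 0.17, limma adjusted p = 0.568). The deleted part of the gene is not given in the sources used here, and a value summed over the whole gene need not show the loss of some exons. The group is therefore called labelled Sirt1-deleted. T lineage markers were high throughout (summed normalized count 184357 to 192168 in controls and 159134 to 176049 in the labelled Sirt1-deleted samples), but the sums did not overlap. Of 14 T lineage markers 1 was called higher and 3 lower. Tcf7, the largest part of the sum, had means of 77941.5 in controls and 58425.6 in the other group. The means of Cd3d, Cd3g, Cd7, Lck, Bcl11b and Ptcra were higher there. Of 14 neutrophil marker genes 13 were called higher and none lower, with sums of 9166 to 12658 in controls and 28974 to 99982 in the labelled Sirt1-deleted samples. Of 16 macrophage and monocyte markers 13 were called higher and none lower, with sums of 3472 to 3978 and 7190 to 13301. No marker of any of the 6 lineage lists that was in the table stood at 0 in all samples. On the first principal component labelled Sirt1-deleted replicates 10 and 11 lay nearest the controls (9.41 and 12.9, the others 39.2 to 52.1, controls -46.1 to -22.0). In bulk tissue, fewer cells of a type and less RNA per cell cannot be told apart.

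Among the labelled Sirt1-deleted samples, 3 of the 10 members were higher than in controls, 2 were lower and 5 did not pass (limma on log2(normalized count + 1), Benjamini-Hochberg adjusted p under 0.05 over 15276 genes). Over all tested genes 36.1% passed, 16.8% as higher and 19.4% as lower. The 3 higher genes were Bbc3, Bax and Pmaip1, and the 2 lower were Bcl2l11 and Bak1. The 3 pro-survival genes did not pass. The median log2 difference was 0.06 over the members and -0.00014 over all tested genes. The 5 called members stayed called, with the same signs, without labelled Sirt1-deleted replicates 10 and 11, where Bcl2 was called as well.

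**Figure D1:**
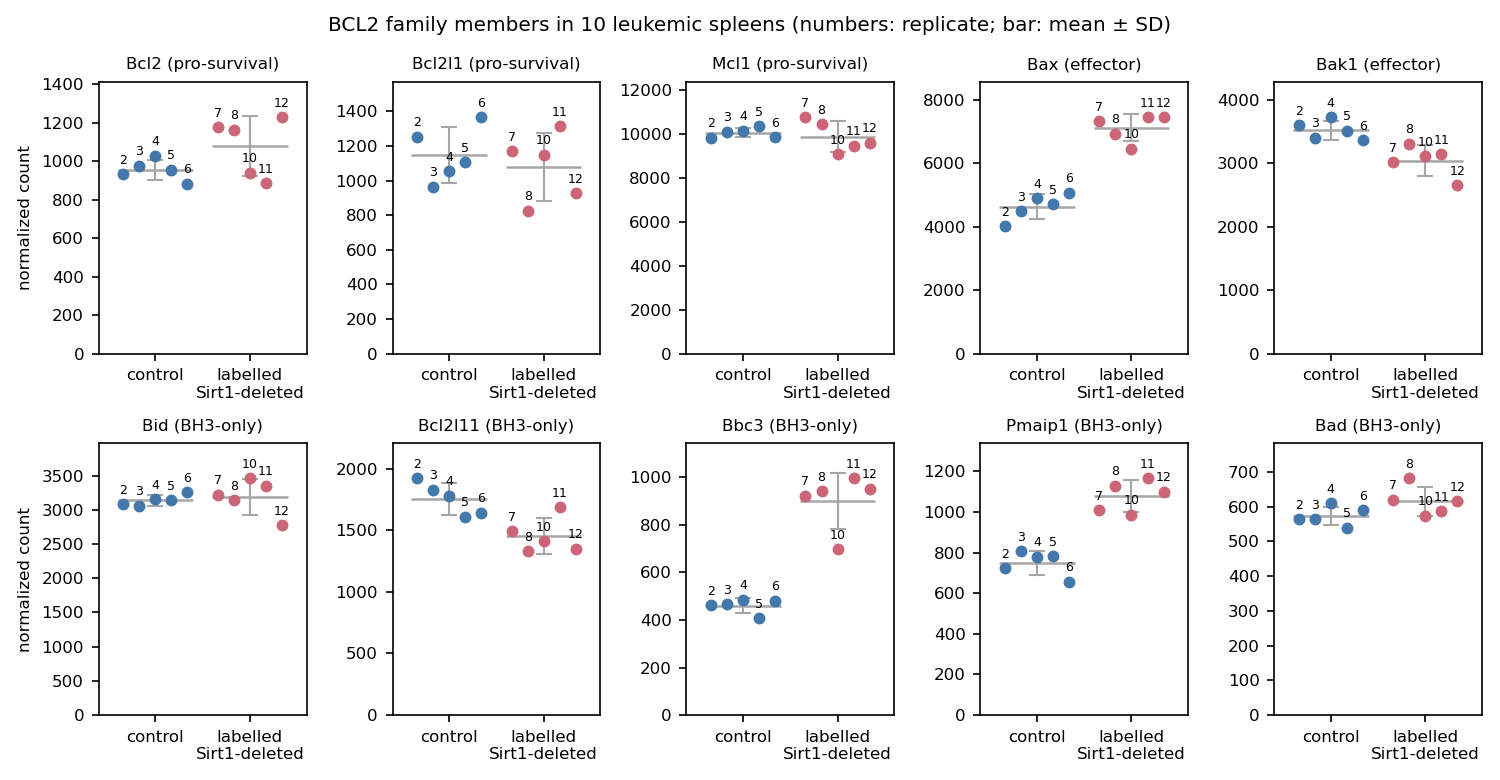
Normalized counts of the 10 members in each of 5 control and 5 labelled Sirt1-deleted spleens; each point is 1 spleen with its replicate number, and grey bars give the mean ± SD. For Bax, Bbc3 and Pmaip1 every labelled Sirt1-deleted point lies above every control, for Bak1 every one lies below, and for the other members the groups overlap.

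Bax rose and Bak1 fell, so the effectors moved in opposite directions. The Bax gene (ENSMUSG00000003873.11, chr7:45461697-45466898 in GRCm38, minus strand) encodes a cytosolic effector that moves to mitochondria on activation. Its normalized count was 4024, 4488, 4892, 4712 and 5072 in control replicates 2 to 6. It was 7325, 6942, 6461, 7463 and 7453 in labelled Sirt1-deleted replicates 7, 8, 10, 11 and 12. The groups did not overlap, which held for 24.0% of all tested genes, and replicate 10 was the lowest of its group. The mean was 1.54 times that of controls (7129 ± 429 against 4638 ± 405, SD over 5 spleens per group; difference on the log2 scale 0.62, SE 0.07, limma adjusted p = 0.000129, exact two-sided permutation p = 0.00794, the smallest possible with 5 against 5). GENCODE M21 places a same-strand gene, Gm45808, over 12.2% of the exonic bases of Bax.

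Bak1 (ENSMUSG00000057789.14, chr17:27019810-27029009, minus strand) encodes the effector that resides in the mitochondrial membrane. Controls measured 3601, 3403, 3731, 3511 and 3360 normalized counts in replicates 2 to 6. The labelled Sirt1-deleted samples measured 3015, 3307, 3109, 3140 and 2650 in replicates 7, 8, 10, 11 and 12. Every one of them was below the lowest control, but by a narrow margin in replicate 8. The fall was by 0.21 on the log2 scale (SE 0.06, limma adjusted p = 0.0161), a mean of 0.865 times that of controls. Exons of Ggnbp1 on the opposite strand cover 18.2% of the exonic bases of Bak1. Ggnbp1 had a mean of 307 in controls and 376 in the other group (log2 difference 0.28, limma adjusted p = 0.0529).

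The Bax to Bak1 ratio of normalized counts restates the rise of Bax and the fall of Bak1, spleen by spleen. It was 1.12, 1.32, 1.31, 1.34 and 1.51 in control replicates 2 to 6, and 2.43, 2.10, 2.08, 2.38 and 2.81 in labelled Sirt1-deleted replicates 7, 8, 10, 11 and 12. Since these counts are not per length, only the change of the ratio between samples is read. Ratios of members, here and below, combine differences that are also given gene by gene, so their separation of the groups adds no support. No p is given for them.

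The promoters of Bax and Bbc3 are shown because these genes rose most among the members, with RefSeq sequence (build GRCm38.p6) of the 250 bases before the annotated start, 5′ to 3′ on the gene's strand. Capitals mark exact matches to the 10-base p53 half-site (only a part of the full p53 element) or to the E-box CACGTG. Both were searched on both strands without mismatches and chosen with the sequences in view. The Bax window is chr7:45466899-45467148 on the minus strand. The printed Bbc3 windows are chr7:16309333-16309582 and chr7:16310181-16310430 on the plus strand.
Bax: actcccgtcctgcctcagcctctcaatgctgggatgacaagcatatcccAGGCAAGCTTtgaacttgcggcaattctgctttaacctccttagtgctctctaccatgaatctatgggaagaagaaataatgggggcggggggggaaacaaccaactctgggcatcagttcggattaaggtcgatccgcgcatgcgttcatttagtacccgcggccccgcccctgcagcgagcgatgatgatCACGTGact
Bbc3, start 1: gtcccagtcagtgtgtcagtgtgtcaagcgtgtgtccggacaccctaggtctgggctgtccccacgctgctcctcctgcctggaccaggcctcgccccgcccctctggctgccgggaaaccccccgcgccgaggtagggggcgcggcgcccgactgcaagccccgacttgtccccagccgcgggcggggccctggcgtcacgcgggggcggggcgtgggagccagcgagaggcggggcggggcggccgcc
Bbc3, start 3: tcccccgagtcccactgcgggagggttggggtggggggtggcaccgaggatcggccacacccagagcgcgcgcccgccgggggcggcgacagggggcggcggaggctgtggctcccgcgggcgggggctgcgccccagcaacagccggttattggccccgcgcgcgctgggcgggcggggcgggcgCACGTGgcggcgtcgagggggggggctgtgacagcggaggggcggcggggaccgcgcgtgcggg
The Bax window held 1 match to the p53 half-site, at position -201 relative to the annotated start, and 1 E-box at -9, with no overlap between them. The window of Bbc3 start 3 held 1 E-box, at -64. No exact match to the p53 half-site lay in any of the 3 Bbc3 windows. These windows lie within the GENCODE span of the gene (chr7:16308393-16318205), so no bases before that span were searched. Because no mismatch was allowed, a p53 site that departs from the consensus would be missed, so its absence is not shown. Of 32851 promoter windows of this length, 7.13% held the p53 half-site and 6.02% the E-box. The other 7 matched members (Pmaip1 was not printed or searched) held neither in any window. A match is a description of these letters and not of a bound site.

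Bbc3, which encodes PUMA, showed the largest difference of the members. This gene (ENSMUSG00000002083.13, chr7:16308393-16318205, plus strand) had normalized counts of 462, 468, 485, 408 and 481 in control replicates 2 to 6. In labelled Sirt1-deleted replicates 7, 8, 10, 11 and 12 the counts were 923, 943, 698, 996 and 953. The groups were far apart, and replicate 10 was again the lowest of its group, though above every control. The mean was 1.96 times that of controls (902 ± 118 against 461 ± 31.2, SD over 5 spleens per group; difference on the log2 scale 0.96, SE 0.10, limma adjusted p = 0.000104). This absolute log2 difference was larger than that of 94.0% of tested genes.

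Pmaip1, which encodes NOXA, a BH3-only protein that binds MCL1, rose by 0.52 on the log2 scale (SE 0.07, limma adjusted p = 0.000608). Its normalized counts were 722, 807, 780, 782 and 657 in control replicates 2 to 6. They were 1010, 1130, 987, 1165 and 1099 in labelled Sirt1-deleted replicates 7, 8, 10, 11 and 12. The groups did not overlap, and replicate 10 again gave the lowest value among the labelled Sirt1-deleted samples. Replicate 10 also had the lowest summed neutrophil markers of its group (28974) and the lowest macrophage and monocyte markers (7190). Without replicate 10 the log2 differences of Bbc3, Bax and Pmaip1 were 1.05, 0.66 and 0.56. Replicate 11, near the controls on the first principal component, had the highest count of its group in all 3 genes. The part of myeloid cells in these differences was not tested.

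Bcl2l11 went the other way. It encodes BIM, the BH3-only protein best known for deleting thymocytes and ending cytokine-starved lymphocytes (ENSMUSG00000027381.16, chr2:128126038-128162547, plus strand). Its normalized counts were 1921, 1830, 1780, 1610 and 1644 in control replicates 2 to 6. They were 1491, 1329, 1414, 1686 and 1350 in labelled Sirt1-deleted replicates 7, 8, 10, 11 and 12. The groups overlapped through replicate 11, which exceeded 2 controls. The fall was by 0.28 on the log2 scale (SE 0.07, limma adjusted p = 0.0133, exact two-sided permutation p = 0.0238), and it did not pass with an exact rank-sum test (adjusted p = 0.0823). The gene has 5 protein-coding transcripts in GENCODE M21, which the gene value does not separate. The ratio of Bbc3 to Bcl2l11 counts was 0.240 to 0.293 in controls and 0.493 to 0.709 in the labelled Sirt1-deleted samples.

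Bid and Bad were not called. Bid, which links death receptors to mitochondria once cleaved by caspase 8, ranged from 3063 to 3259 normalized counts in controls and from 2777 to 3460 in the labelled Sirt1-deleted samples. Its log2 difference was 0.02 (95% interval -0.11 to 0.15, limma adjusted p = 0.831). The SD was 77.1 in controls and 262 in the other group, in which replicate 12 was the lowest. Exons of Bcl2l13, which fell, overlap 17.7% of the exonic bases of Bid on the opposite strand. Bad, whose product is inactivated by survival kinases, ranged from 540 to 610 and from 575 to 682. Its log2 difference was 0.10 (95% interval -0.05 to 0.25, limma adjusted p = 0.265). Exons of Gpr137 on the opposite strand overlap 20.5% of the exonic bases of Bad, and Gpr137 rose by 0.35 on the log2 scale (limma adjusted p = 0.00698).

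**Figure D2:**
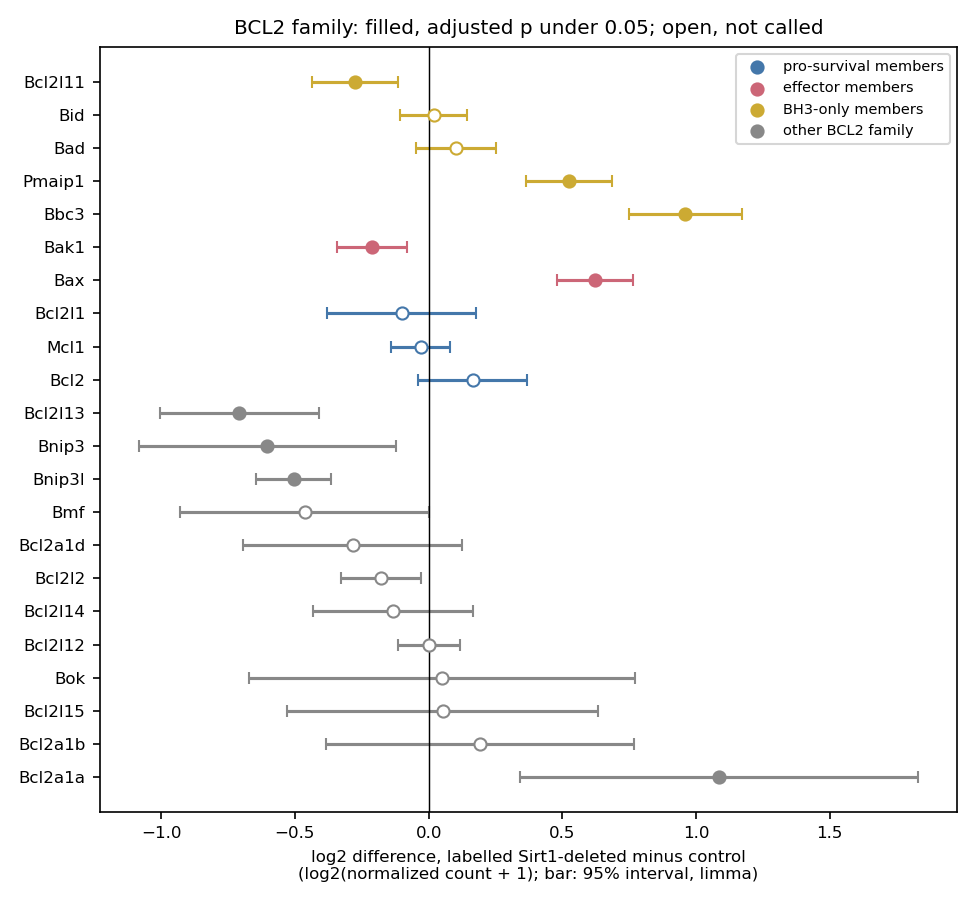
Log2 differences (labelled Sirt1-deleted minus control) of the 10 members and 12 other tested BCL2 family genes on the log2(normalized count + 1) scale; bars are 95% intervals from limma, filled points are called and open points are not. Bbc3 at 0.96 and Bax at 0.62 lie right of 0, Bcl2l11 at -0.28 and Bak1 at -0.21 left of it, and the intervals of Bcl2, Bcl2l1 and Mcl1 cross it.

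Of the 3 pro-survival genes, 0 passed the limma test with all samples, 0 had an unadjusted p under 0.05 and 0 passed the exact rank-sum test. Exact two-sided permutation p was 0.135 for Bcl2, 0.532 for Bcl2l1 and 0.563 for Mcl1. Mcl1, which encodes a short-lived protein that most T cells need to survive, had a 95% interval of its difference that lay close around 0. Its normalized counts were 9832, 10112, 10151, 10364 and 9872 in control replicates 2 to 6, and 10782, 10464, 9090, 9481 and 9604 in labelled Sirt1-deleted replicates 7, 8, 10, 11 and 12. The log2 difference was -0.03 with a 95% interval of -0.14 to 0.08, and it turned to 0.02 after quantile normalization and 0.03 after upper-quartile rescaling. The labelled Sirt1-deleted samples lay on both sides of the controls.

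Bcl2 did not move evenly within the labelled Sirt1-deleted group. Controls measured 933, 977, 1029, 957 and 884 normalized counts in replicates 2 to 6. Labelled Sirt1-deleted replicates 7, 8 and 12 measured 1178, 1164 and 1231, above every control, while replicates 10 and 11 measured 941 and 885, inside the control range. With all samples the log2 difference was 0.16 (SE 0.09, 95% interval -0.04 to 0.37, limma adjusted p = 0.186). Without replicate 11 it was 0.23 (limma adjusted p = 0.0470), and without replicates 10 and 11 together 0.32 (limma adjusted p = 0.00242). The same 2 replicates had the lowest neutrophil marker sums of their group (28974 and 39752, the others 44848 to 99982), and the part of those cells in the spread of Bcl2 was not tested. An antisense gene, D630008O14Rik, overlaps 6.09% of the exonic bases of Bcl2.

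Bcl2l1, which encodes BCL-XL, varied widely in both groups and followed erythroid markers. Its normalized counts were 1252, 964, 1053, 1105 and 1367 in control replicates 2 to 6, and 1170, 825, 1150, 1315 and 926 in labelled Sirt1-deleted replicates 7, 8, 10, 11 and 12. The log2 difference was -0.10 (SE 0.13, 95% interval -0.38 to 0.18, limma adjusted p = 0.570). BCL-XL is the pro-survival protein on which maturing red blood cell precursors depend. The summed normalized count of 10 erythroid marker genes (among them globins, Klf1, Gata1, Epor, Alas2, Slc4a1 and Tfrc) was 102185, 36743, 83788, 75245 and 106149 in control replicates 2 to 6. It was 101987, 32108, 76480, 124953 and 46201 in labelled Sirt1-deleted replicates 7, 8, 10, 11 and 12. Globins were the largest part of this sum (control means 26726 for Hbb-bs, 18657.5 for Hba-a1 and 9441 for Hbb-bt). Tfrc had a control mean of 13878, while Klf1, Gata1 and Epor had 703, 500 and 510 and weigh little in it.

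Control replicate 3 and labelled Sirt1-deleted replicates 8 and 12 were thus low in both quantities, and control replicate 6 and labelled Sirt1-deleted replicate 11 were high in both. Over the 10 samples, Pearson's r of the log2 values was 0.935 (permutation p = 9e-05, adjusted over the 10 members p = 0.0009) and Spearman's rho was 0.939 (permutation p = 0.00026, adjusted p = 0.0026), both two-sided. Without the 2 samples farthest from the median marker sum (control replicate 3 and labelled Sirt1-deleted replicate 8), r was 0.907. With the group means removed, r was 0.939. Among 15266 tested genes outside the marker list, 16 other genes had an r at least as high. None of the other 9 members passed after adjustment (adjusted permutation p of r 0.416 to 0.851), with r between -0.542 for Bcl2 and 0.522 for Bid. The relation was noticed in these data before it was computed, so its p-values are not a separate test of it. Their adjustment covers the 10 members and not the other marker lists. The part of erythroid cells in Bcl2l1 was not tested.

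**Figure D3:**
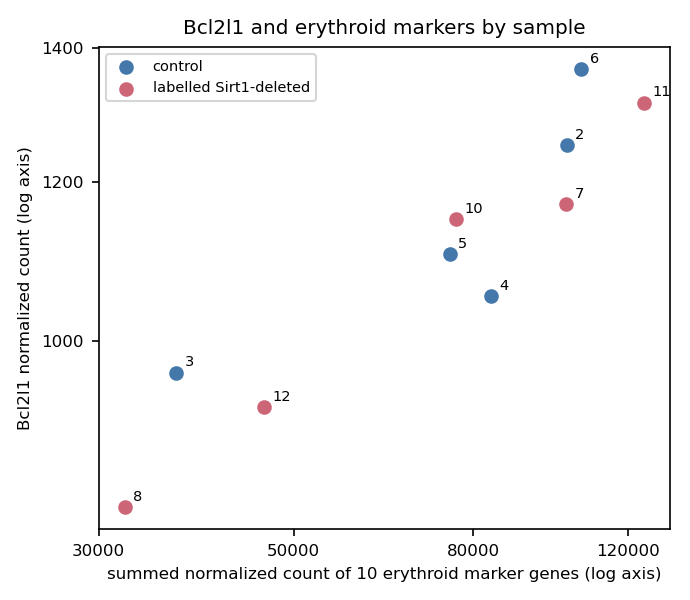
Bcl2l1 normalized count against the summed normalized count of 10 erythroid marker genes in each spleen, both on log axes; numbers are replicates and colours are groups. Samples of both groups lie along 1 rising band, from 825 (labelled Sirt1-deleted replicate 8) to 1367 (control replicate 6) for Bcl2l1.

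Set side by side, the class medians of the log2 differences were -0.03 for the 3 pro-survival genes, 0.20 for the 2 effectors and 0.10 for the 5 BH3-only genes. These medians hide opposite movements among the effectors (-0.21 and 0.62) and among the BH3-only genes (-0.28 to 0.96). The Bax to Bcl2 ratio of normalized counts ran from 4.31 in control replicate 2 to 5.73 in control replicate 6. It was 6.22, 5.96, 6.86, 8.43 and 6.06 in labelled Sirt1-deleted replicates 7, 8, 10, 11 and 12. All of the latter were above the highest control, most of all replicate 11, in which Bcl2 was lowest. The Bax to Mcl1 ratio was 0.409 to 0.514 in controls and 0.663 to 0.787 in the labelled Sirt1-deleted samples.

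**Figure D4:**
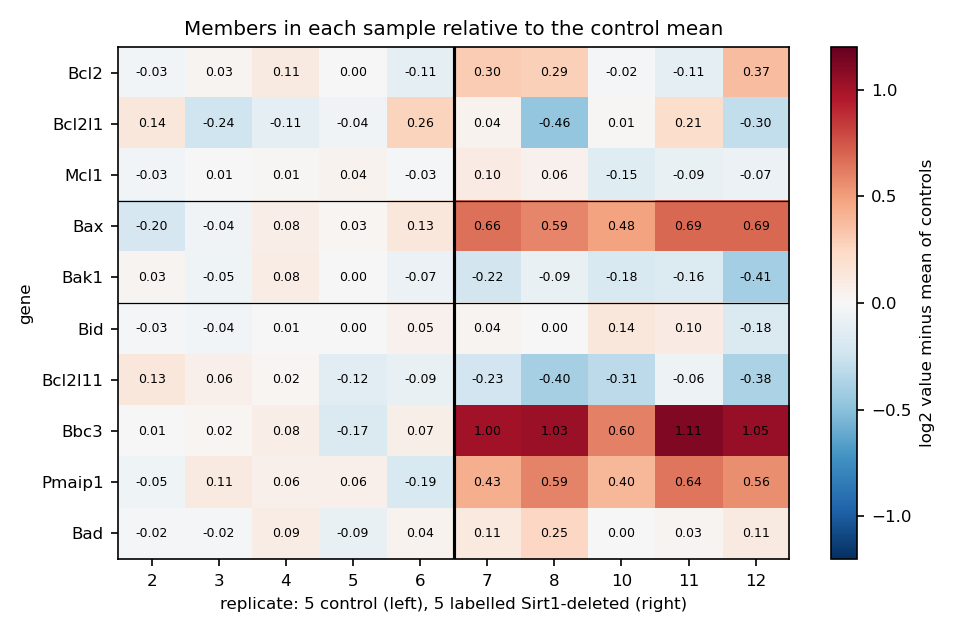
Log2 value of each member in each sample minus the mean of the 5 controls; colour and number give the same quantity, rows run from pro-survival genes through effectors to BH3-only genes. Bbc3 is between 0.60 and 1.11 and Bax between 0.48 and 0.69 in the labelled Sirt1-deleted columns, whereas Bcl2 is between -0.11 and 0.37 there.

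Per kilobase of annotated exon, Mcl1 and Bax were the most abundant members and Bcl2 the least. In controls the mean normalized count per kilobase was 2945 for Mcl1, 2943 for Bax, 1463 for Bak1 and 885 for Bid. Pmaip1 (274), Bcl2l1 (250), Bad (224), Bcl2l11 (219) and Bbc3 (217) followed, with overlapping ranges between neighbours, and Bcl2 was last at 104. Mcl1 (2877 to 3032) and Bax (2554 to 3218) could not be ordered in controls. In the labelled Sirt1-deleted samples Bax (4523, range 4100 to 4735 per kilobase) was above Mcl1 (2892, range 2659 to 3154). By its mean, Bbc3 moved from the place before last in controls to the fifth place (425, range 328 to 469 per kilobase). Its range overlapped that of Pmaip1, next in order (395, range 361 to 426). The order depends on the length used: per kilobase of mean protein-coding transcript, Bax was above Mcl1 already in controls (6957 against 4708). On that length Bbc3 was in place 8 in controls.

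Among 12 other tested family genes, 1 was called higher and 3 lower, a share near that of all tested genes (36.1%). Bnip3l, a mitophagy receptor of red cell precursors with a BH3-like motif, fell from 4361, 3967, 4086, 3820 and 4191 normalized counts in control replicates 2 to 6 to 2769, 2624, 2961, 3330 and 2748 in labelled Sirt1-deleted replicates 7, 8, 10, 11 and 12 (log2 difference -0.50, limma adjusted p = 0.000413). Bcl2l13, another mitochondrial membrane protein of the family, fell from 2880 ± 346 to 1791 ± 409 (SD over 5 spleens per group), with a log2 difference of -0.71 (limma adjusted p = 0.00265). Neither overlapped between the groups. The related Bnip3 was lower at a low level (66.3 ± 10.5 against 44.5 ± 13.4, SD, n = 5 each; limma adjusted p = 0.04999, just under the threshold), with overlap. Bcl2a1a was higher at a level of few reads (9.95 ± 3.97 against 22.3 ± 8.25, SD, n = 5 each; log2 difference 1.09, limma adjusted p = 0.0267), with overlap. Bnip3 and Bcl2a1a are named to complete the counts, after their values were seen.

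In all, 1 of 4 tested other pro-survival genes was called (higher) and 1 of 4 genes of unsettled role (lower). Of 4 genes listed as other pro-apoptotic, 2 were called, Bnip3l and Bnip3 (both lower). In that list Bok (means of 16.1 in controls and 17.0 in the other group, limma adjusted p = 0.925) and Bmf were not called. Bcl2a1 copies are near-identical, so reads can be split among them, and Bcl2a1b and Bcl2a1d had log2 differences of 0.19 and -0.28 that were not called. Bcl2a1a is a gene of myeloid cells as well as lymphocytes, and the neutrophil sums given above were also higher in the labelled Sirt1-deleted group. Within that group the order differed. Bcl2a1a was lowest in replicate 7 and highest in replicate 12, while the neutrophil sum was lowest in replicate 10 and highest in replicate 8. The part of myeloid cells in Bcl2a1a was not tested. Bmf, a BH3-only gene whose product is tethered to the cytoskeleton, scattered from 953 to 1766 in controls and from 559 to 1152 in the labelled Sirt1-deleted samples (log2 difference -0.46, limma adjusted p = 0.110). Bcl2l2, which encodes the pro-survival BCL-W, had means of 1003 and 887 (log2 difference -0.18, limma adjusted p = 0.0612). Bik and Hrk had mean normalized counts of 2.28 and 2.16 in the labelled Sirt1-deleted samples and were too low to test.

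Among apoptosome and caspase genes, Apaf1 and Cycs rose and Casp2 fell. Of 7 tested genes of the apoptosome and caspase list 3 were higher and 2 lower, with a median log2 difference of -0.10. These counts, and those of the lists that follow, stand beside 16.8% higher and 19.4% lower over all tested genes, and nothing particular to a list is read from them. Apaf1, which encodes the scaffold of the apoptosome and is a p53 target, was between 1552 and 1927 normalized counts in controls and between 2395 and 3628 in the labelled Sirt1-deleted samples (log2 difference 0.62, limma adjusted p = 0.00134). Cycs, which encodes cytochrome c, rose from 4789 ± 330 to 6451 ± 318 (SD over 5 spleens per group), with a log2 difference of 0.43 (limma adjusted p = 0.000407). Casp2, a caspase gene, fell by 0.31 on the log2 scale (limma adjusted p = 0.00395). Apaf1, Cycs and Casp2 did not overlap between the groups. The initiator Casp9 had a log2 difference of -0.18 that was not called (limma adjusted p = 0.0871).

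Among 7 inhibitors of apoptosis and their antagonists, 3 were higher and 1 lower (median 0.11). Birc6, which encodes the large caspase inhibitor BRUCE, rose by 0.35 on the log2 scale (limma adjusted p = 0.00417), and Birc5, which encodes survivin, a protein of dividing cells, by 0.23 (limma adjusted p = 0.00914). Of 8 tested genes of the death receptor arm that leads to BID, 3 were higher and 1 lower (median 0.05). Tnfrsf10b, the mouse TRAIL receptor, rose by 0.60 (limma adjusted p = 0.00158) and Fas by 0.32 (limma adjusted p = 0.0153), while the kinase gene Ripk1 fell by 0.27 (limma adjusted p = 0.00527). Tnfrsf10b is also in the list of p53 targets outside the family. Of 7 outer membrane partners 2 were higher (median 0.04). Of these, Mtch2, which encodes the mitochondrial receptor of cleaved BID, rose by 0.26 without overlap (limma adjusted p = 0.00412), while the voltage-dependent channel genes Vdac1, Vdac2 and Vdac3 were not called.

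Of 9 tested transcriptional regulators of BH3-only genes, 3 were higher and 2 lower (median 0.07). Without labelled Sirt1-deleted replicates 10 and 11 the count was 8, with 5 higher and 3 lower. Nr3c1, which encodes the glucocorticoid receptor that induces Bcl2l11 in lymphocytes, fell from 6571 ± 317 to 4476 ± 461 normalized counts (SD over 5 spleens per group), with a log2 difference of -0.56 (limma adjusted p = 0.000276). Atf4 rose by 0.42 (limma adjusted p = 0.000828) and Jun by 0.47 (limma adjusted p = 0.00532), both stress-responsive factors. Foxo1, Foxo3 and Foxo4, which also act on Bcl2l11 and Bbc3, were not called with all samples. Foxo genes are among the 8 called without replicates 10 and 11. Trp53, which encodes p53, was lower, at 9837, 8993, 8974, 9295 and 9382 in control replicates 2 to 6 and 7186, 8090, 8481, 8309 and 5831 in labelled Sirt1-deleted replicates 7, 8, 10, 11 and 12 (log2 difference -0.31, limma adjusted p = 0.0176).

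Of 13 tested regulators that act on the member proteins, 3 were higher and 5 lower (median -0.04). Huwe1, a ubiquitin ligase of MCL1, fell by 0.27 on the log2 scale (limma adjusted p = 0.0110), and Akt1, a kinase that inactivates BAD, by 0.22 (limma adjusted p = 0.0128). Pim2, another kinase acting on BAD, rose by 0.42 (limma adjusted p = 0.00310), and Dynll1, a dynein light chain that tethers BIM, by 0.36 (limma adjusted p = 0.000897).

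Of 16 p53 target genes outside the family 12 were higher and none lower, with a median log2 difference of 0.53 beside -0.00014 for all tested genes. This list was drawn up with earlier results of these data known, so its direction is not separate evidence. Cdkn1a (p21, which halts the cell cycle) measured 242 to 335 normalized counts in controls and 888 to 1542 in the labelled Sirt1-deleted samples (log2 difference 1.88, limma adjusted p = 3.52e-05), highest in replicate 11, where Bax, Bbc3 and Pmaip1 were also highest. Phlda3, an inhibitor of AKT, rose by 1.40 (limma adjusted p = 3.52e-05) and Perp by 1.43, from 11.2 to 32.2 on average (limma adjusted p = 0.00115). Dram1 rose by 1.12 (limma adjusted p = 0.00474) and Sesn2 by 0.92 (limma adjusted p = 0.000271). Mdm2, which encodes the ubiquitin ligase of p53, rose by 0.23 (limma adjusted p = 0.00593), less than Bax or Bbc3. The 4 genes not called were Trp53inp1, Sesn1, Eda2r and Ei24, with log2 differences of -0.18, 0.13, 0.59 and 0.10, named after their values were seen.

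**Figure D5:**
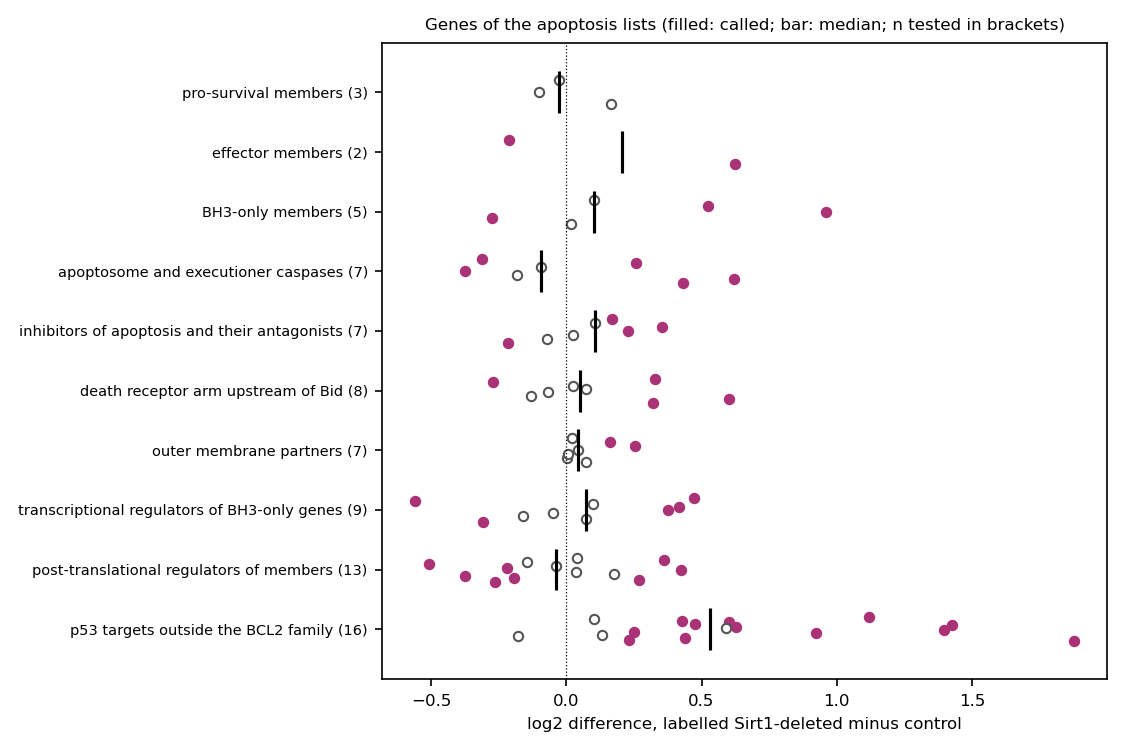
Log2 difference (labelled Sirt1-deleted minus control) of every tested gene of the member classes and of 7 further apoptosis lists; filled points are called, open points are not, and the black bar is the list median. The p53 targets outside the family lie mostly right of 0 (median 0.53), the 7 outer membrane partners lie between 0.00097 and 0.26, and the other lists have genes on both sides of 0 with medians between -0.10 and 0.20.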

How the data were processed

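RNA from 10 leukemic spleens was sequenced as strand-specific libraries, per the labels' protocols. The deposited signal is a count per gene divided by DESeq normalization factors by the authors. It is not divided by gene length, and the submitters' processing notes name kallisto 0.44.0, DESeq and mm10. Neither the transcript set nor a gene filter is given in the sources used here. Column totals were 33.7 to 34.5 M. Because 68.0% to 74.0% of low values lay within 0.1 reads of a whole multiple, reads were not recovered, no count model was run and no counting intervals are given. An approximate depth from the spacing of low values was 31.4 to 38.5 M reads.

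For 15276 genes with a mean of at least 10, log2(value + 1) was fitted with limma 3.58.1 (R 4.3.3; group only, empirical Bayes with intensity trend, Benjamini-Hochberg over all genes, threshold 0.05). Log2 differences understate changes of low genes. In simulated data with 15276 genes, the fit recovered 81 of 100 simulated 2-fold changes and 74 of 100 at 1.5-fold, with 8 false calls of 163. The simulated spread came from the controls alone, and no other genes were changed. In the deposited data 36.1% of genes passed, so these rates need not hold for them. For single genes, the exact permutation test (two-sided) used all 252 assignments, and the relations to erythroid markers with 100000 permutations. Lengths, coordinates and overlaps came from GENCODE M21 (GRCm38). Named genes were the members, Sirt1, Trp53, Cdkn1a, Mdm2 and, per list, up to 5 called genes without overlap with the largest difference. Casp9 and the Vdac and Foxo genes were named after their values were seen. Members and lists were chosen with earlier results of these data known. Some genes that met the naming rule are not reported here.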

Additional observations from a re-analysis of the deposited data

Results flagged for a closer look

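For 28 sets of 5 samples (the 10 members, Sirt1, Trp53, Cdkn1a and Mdm2 in each group), the distance from the highest or lowest sample to the next one was compared with the whole spread of the set. Their ratio passed 0.71 (Dixon's 95% critical value) in 1 set, where chance at 1 in 20 gives 1.4. This was Bbc3 in labelled Sirt1-deleted replicate 10, at 698 normalized counts against 923 to 996 in the other labelled Sirt1-deleted samples (ratio 0.757). Without that sample the log2 difference of Bbc3 was 1.05.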

How the results depend on the processing

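No paired analysis was possible because no replicate number occurs in both groups. Count models (edgeR, DESeq2) were planned but left out for want of whole reads. Bax, Bbc3 and Pmaip1 stayed called as higher, and Bak1 as lower, under all 10 alternatives at the 0.05 threshold that kept all samples and in all 10 fits without 1 sample. Bcl2l11 stayed called as lower except with the exact rank-sum test, which called 4 members. At an adjusted p under 0.01, 3 members (Bax, Bbc3, Pmaip1) were called. Leaving out 1 sample gave 5 to 6 called members, the sixth being Bcl2 without labelled Sirt1-deleted replicate 11. Omission of replicates 10 and 11 together, chosen after seeing the data, gave 6. Over all genes, 5518 were called (2562 higher, 2956 lower), 3659 with the rank-sum test, 2850 at 0.01 and 4207 to 6259 without 1 sample. Upper-quartile rescaling made 58.2% of the called genes higher, against 46.4%. Mcl1, never called, turned positive after quantile normalization (0.016), sample weights (0.0069), upper-quartile rescaling (0.030) and the omission of replicates 10 and 11 (0.029), and ranged from -0.061 to 0.00047 without 1 sample. Bid, never called, turned to -0.047 without replicates 10 and 11 and ranged from -0.011 to 0.068 without 1 sample. Of the other family genes, Bcl2a1a and Bnip3 lost their calls under several alternatives: their lists had 0 to 2 and 1 to 2 called genes without 1 sample. Depth limits what can be said of Bcl2a1a, Bik and Hrk.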
